A study of Mus musculus with 20 samples.

Results

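Scavenger receptors are cell surface and lysosomal proteins with which macrophages bind and take up modified lipoproteins, fatty acids, cell debris and haemoglobin. The genes Msr1, Cd36, Marco, Scarb1, Scarb2, Cd68, Stab1, Cd163 and Olr1 were selected by symbol from a table of normalized gene counts, in which Ensembl identifiers were matched to symbols with GENCODE M21. Of these 9 genes, 7 are among the 14456 listed genes. Marco and Olr1 were not analysed here. Cd68 fell by 0.15 on the log2 scale in macrophages kept in high glucose (SE 0.032, n = 4 against 4 libraries, limma adjusted p = 0.00129), and no other of the 7 was called in any comparison. In high against normal glucose, 13.3% of all genes tested were called. With exosomes from high glucose macrophages against PBS, Cd36 was 9.35% higher and Stab1 differed by -7.72%, with adjusted p-values under 0.05 from limma but with changes under the fold limit set for a call. Of all genes, 5.4% had such a p there, and leaving out the fold limit was chosen after seeing the data. Without limma's trend of variance on mean, none of Cd68, Cd36 and Stab1 had an adjusted p under 0.05 in these comparisons. With edgeR, Cd36 did not.

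The libraries were made from total RNA of bone marrow-derived macrophages (BMDM), grown for 6 days with 25 ng per ml of the growth factor M-CSF from the marrow of male wild-type C57BL/6J mice of at least 8 weeks. One experiment compared high glucose (25 mM, n = 4 libraries) with normal glucose (5.5 mM glucose plus 19.5 mM mannitol, n = 4), each for 24 h. The other exposed naive BMDM for 24 h to PBS (n = 4), to exosomes released by BMDM in normal glucose (BMDM-NG-exo, n = 4) or to exosomes released by BMDM in high glucose (BMDM-HG-exo, n = 4), at 2000000000 particles per ml. Each group of the exosome experiment has 1 library from each of the same 4 label dates, and libraries of one date carry the same replicate number below. The normal glucose medium carried mannitol to match the osmolarity of 25 mM glucose, so the groups differ in both sugars, and the BMDM-NG-exo donor cells were kept in that same medium. The sources used here do not say which libraries share a mouse or a culture, so the p-values measure the spread between these libraries only.

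Members of the family differ in what they bind and where they act. Msr1 (scavenger receptor A) and Cd36 take up oxidised or acetylated low-density lipoprotein, and Cd36 also takes up long-chain fatty acids and binds thrombospondin. Scarb1 (SR-BI) exchanges cholesterol with high-density lipoprotein. Scarb2 (LIMP-2) is a lysosomal membrane protein that carries glucocerebrosidase to the lysosome. Cd68 (macrosialin) is a heavily glycosylated protein of late endosomes and lysosomes. Stab1 (stabilin-1) clears acetylated lipoprotein, apoptotic cells and the matrix protein Sparc, and Cd163 clears haptoglobin-haemoglobin complexes. In arterial plaques, uptake of modified lipoprotein through such receptors turns macrophages into lipid-laden foam cells.

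The 250 bases before the RefSeq start of Cd36, Cd68 and Stab1 are shown because these 3 genes had an adjusted p under 0.05 in at least 1 comparison. They come from RefSeq (GRCm38.p6), each on the minus strand and written 5′ to 3′. The windows are chr5:17835897-17836146 for Cd36, chr11:69666171-69666420 for Cd68 and chr14:31168642-31168891 for Stab1. Capitals mark matches, on either strand, to GAGGAA (the core bound by the myeloid factor Spi1), AGGTCA (a motif of nuclear receptors) and CATGTG (an E-box of the Mitf family).
Cd36: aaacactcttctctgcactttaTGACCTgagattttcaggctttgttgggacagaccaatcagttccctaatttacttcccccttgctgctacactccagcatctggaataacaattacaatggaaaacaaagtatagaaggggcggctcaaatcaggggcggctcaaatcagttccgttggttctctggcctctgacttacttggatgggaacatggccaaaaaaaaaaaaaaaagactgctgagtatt
Cd68: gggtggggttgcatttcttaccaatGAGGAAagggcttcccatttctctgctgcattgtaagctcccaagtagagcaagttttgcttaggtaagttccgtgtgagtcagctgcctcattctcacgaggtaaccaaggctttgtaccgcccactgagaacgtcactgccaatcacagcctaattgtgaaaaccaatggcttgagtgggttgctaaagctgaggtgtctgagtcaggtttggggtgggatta
Stab1: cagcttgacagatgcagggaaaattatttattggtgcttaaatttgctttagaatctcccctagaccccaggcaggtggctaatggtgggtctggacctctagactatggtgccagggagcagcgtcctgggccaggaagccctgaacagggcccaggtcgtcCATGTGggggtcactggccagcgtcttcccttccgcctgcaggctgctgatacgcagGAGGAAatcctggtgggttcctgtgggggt
GAGGAA was found at 225 bases before the start in Cd68 and at 30 bases before it in Stab1, counting to the first base of the match. CATGTG lay 87 bases before the start of Stab1, and the reverse complement of AGGTCA lay 228 bases before that of Cd36. No matches overlapped in these windows. Among 32851 RefSeq promoter windows of the same length, 23.3% hold GAGGAA on either strand, 14% hold AGGTCA and 12.3% hold CATGTG. The start of Cd36 used here lies inside the GENCODE span of that gene (chr5:17781690-17888801), so other starts of Cd36 are not shown. Promoter windows of Msr1 and Scarb1 were not used here.

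The values are counts divided by the size factor of the library. Each library held between 34016445 and 56310712 recovered reads (median 43311931), and each listed gene has a median of at least 11 reads. The 10 macrophage markers checked were all listed, with Csf1r between 87079 and 123454 normalized counts per library, Adgre1 (F4/80) between 31292 and 39687 and Itgam between 6611 and 9703. Of the markers of other cells, 1 of 10 for T and B cells (Cd79b), 5 of 10 for neutrophils and progenitors (highest Ngp), 1 of 7 for dendritic cells (Batf3), 7 of 10 for stroma and endothelium and 0 of 9 for erythroid and mast cells were listed. For stroma and endothelium Col1a1, Col1a2, Col3a1, Pecam1, Kdr, Vwf and Cxcl12 were listed and Dcn, Pdgfra and Cdh5 were not. For neutrophils and progenitors S100a8, S100a9, Mpo, Ngp and Ltf were listed and Ly6g, Elane, Prtn3, Ctsg and Camp were not. In these bulk samples, fewer cells of a type and less RNA per cell cannot be told apart.

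The 7 genes covered a wide range of levels. Per kilobase of merged GENCODE exons, Cd68 was highest at 23939.6 ± 1144 normalized counts (SD, n = 20 libraries), which placed it 41st of 14421 genes. Stab1 followed at 7303 ± 434 and Cd36 at 2739 ± 284. Scarb2 stood at 2084 ± 92.2, Msr1 at 631 ± 47.5 and Scarb1 at 303 ± 18.0 normalized counts per kilobase. Cd163 was lowest at 32.2 ± 8.40, and 21.7% of genes stood below it. This order of levels held in each of the 20 libraries. The mean levels of neighbours in the order differed 3.28-fold between Cd68 and Stab1, 1.31-fold between Cd36 and Scarb2 and 9.43-fold between Scarb1 and Cd163. The annotation used for counting is not given in the sources used here, so the exon lengths are those of GENCODE M21.

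**Figure D1:**
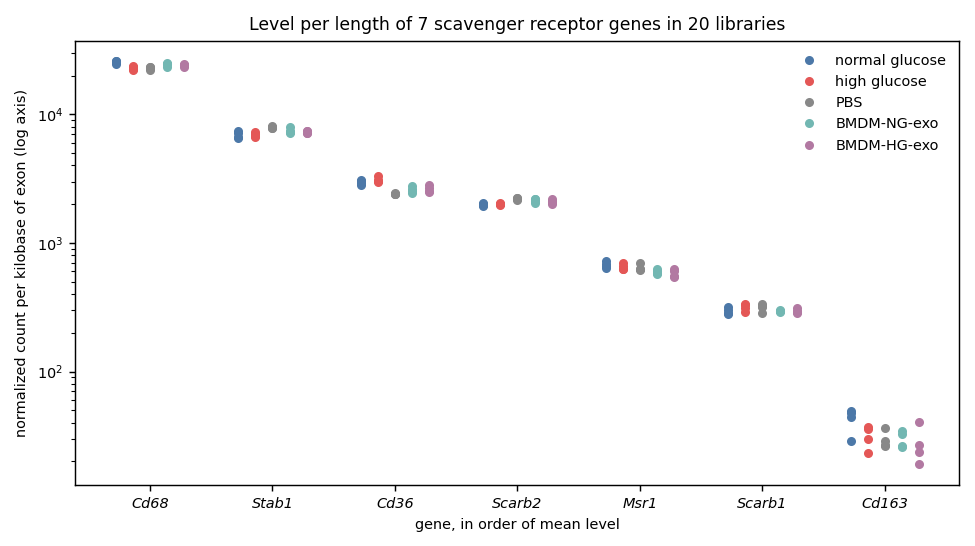
Normalized count per kilobase of merged exons (log axis) of the 7 listed scavenger receptor genes, 1 point per library, coloured by group. The genes keep the same order in all 20 libraries, from Cd68 at a mean of 23939.6 to Cd163 at 32.2.

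Replicates of a group were close for 6 of these genes. Their pooled coefficient of variation within groups lay between 2.33% (Scarb2) and 5.37% (Msr1), against a counting error of at most 1.96% (Scarb1). Cd163 had 103 to 322 reads per library, a variation within groups of 22.3% and a counting error of 7.49%, which makes its intervals wide. No library stood apart from the other 3 of its group for any member by Dixon's test.

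The comparisons were made with limma on log2 of the normalized count plus 1, two-sided, and adjusted p-values are those of Benjamini and Hochberg over all genes of a comparison. In the glucose experiment, 1 of the 7 genes was called at an adjusted p under 0.05 (Cd68, lower in high glucose), where 13.3% of all 14425 genes tested were called (1116 higher and 798 lower, or 789 and 872 under quantile normalization). The same gene was the one whose 2 groups did not overlap, which 16.3% of all genes showed. The median log2 fold change of the 7 genes was 0.0029, beside -0.0031 over all genes. A share of 1 in 7 lies near that background.

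In the exosome experiment a log2 fold change of 0.15 or more in either direction was also required, and none of the 7 genes met both limits in any comparison. Against the combined controls (PBS and BMDM-NG-exo), BMDM-HG-exo gave 0 of 7 calls by limma, where 0.201% of 14413 genes were called, and 1 member (Stab1) had an unadjusted p under 0.05. For BMDM-HG-exo set directly against BMDM-NG-exo the count was 0 of 7, with 0 unadjusted, where 0.0139% of genes were called (2 genes, or 22 with the label date as a block). BMDM-NG-exo against PBS gave 0 of 7 calls with 4 unadjusted, where 3% of genes were called, and BMDM-HG-exo against PBS gave 0 of 7 with 5 unadjusted, where 4.84% were called. Of all 14413 genes, 1511 had an unadjusted limma p under 0.05 against the combined controls and 942 in BMDM-HG-exo against BMDM-NG-exo. The same count was 1947 for BMDM-NG-exo against PBS and 2429 for BMDM-HG-exo against PBS. edgeR and DESeq2 also made 0 calls among the 7 in these 4 comparisons. The median log2 fold changes of the members were -0.048, -0.021, -0.052 and -0.099 in that order, beside medians of all genes between -0.0011 and 0.0045.

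Without the limit on the fold change, which was an alternative chosen after seeing the data, 2 of the 7 genes passed in BMDM-HG-exo against PBS (Cd36 higher, Stab1 lower), where 5.40% of genes did. Both had groups that did not overlap there, as did 10% of all genes. Cd36 also did not overlap between BMDM-NG-exo and PBS, where 8.27% of genes did not. No member was free of overlap in BMDM-HG-exo against the combined controls (1.17% of genes) or against BMDM-NG-exo (3.86% of genes). The comparisons with PBS share the same 4 PBS libraries, so their values are given side by side and are not independent of each other.

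**Figure D2:**
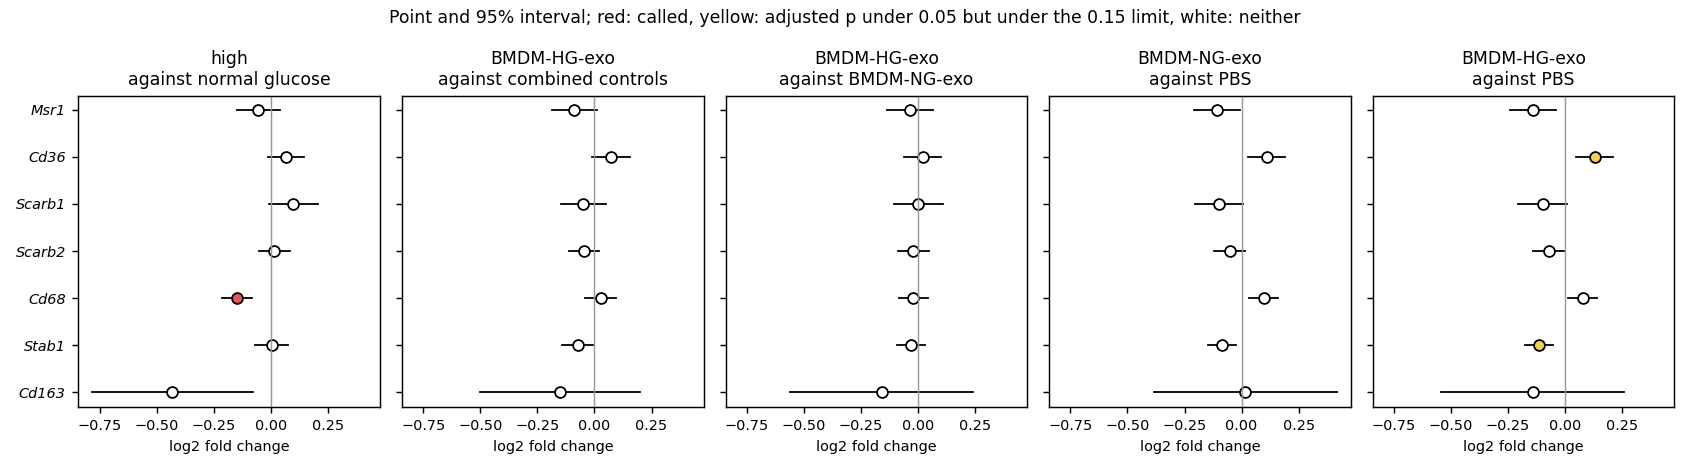
Log2 fold change of the 7 genes (points) with its 95% interval (lines) in the 5 comparisons, on a common axis; red marks a call, yellow an adjusted p under 0.05 with a change under the 0.15 limit. Cd68 in high against normal glucose is the only red point, at -0.15, and Cd36 (0.13) and Stab1 (-0.12) in BMDM-HG-exo against PBS are the yellow ones.

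Among the receptors for modified lipoprotein, Msr1 (GRCm38 chr8:39581685-39642673, minus strand) was at 4069, 4601, 4195 and 4374 normalized counts in the normal glucose libraries and at 3984, 4194, 4422 and 3995 in those in high glucose. These ranges overlapped over most of their width. With PBS it stood at 3921, 4004, 4396 and 3992, with BMDM-NG-exo at 3668, 3851, 4002 and 3631 and with BMDM-HG-exo at 3533, 3465, 3973 and 3824. On each of the 4 dates the PBS library was the highest of the 3. The group means were 4309.8 ± 231 (SD, n = 4 here and for each mean below) in normal glucose, 4149 ± 206 in high glucose, 4078 ± 215 with PBS, 3788 ± 172 with BMDM-NG-exo and 3699 ± 240.1 with BMDM-HG-exo, and all neighbours in this order overlapped. The log2 fold change was -0.055 between the glucose groups (limma adjusted p = 0.499). It was -0.11 for BMDM-NG-exo and -0.14 for BMDM-HG-exo against PBS, with limma adjusted p-values of 0.332 and 0.0965. Within dates the BMDM-HG-exo library was below the PBS library on 4 of 4 dates, by log2 differences of -0.21 to -0.062, and the BMDM-NG-exo library likewise on 4 of 4, by -0.14 to -0.056. With the label date as a block, the adjusted p of BMDM-HG-exo against PBS was 0.0341, still under the fold limit. Without BMDM-HG-exo replicate 3 that comparison was called (log2 fold change -0.18, limma adjusted p = 0.0443). With another library left out its limma adjusted p reached 0.307. Over the other settings that kept all libraries its adjusted p reached 0.294.

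Cd36, the fatty acid and oxidised lipoprotein receptor (chr5:17781690-17888801, minus strand), was at 10051, 10908, 10439.9 and 11144 normalized counts in normal glucose. In high glucose it was at 10863, 10768, 11818 and 11124. The high glucose libraries lay in the upper part of the normal glucose range or above it. The difference was 4.78% with a 95% interval of -0.757% to 10.6%, and limma's adjusted p was 0.281. In the exosome experiment Cd36 was at 8559, 8725, 8639 and 8581 with PBS, at 9163, 9401, 9866 and 8819.9 with BMDM-NG-exo and at 9005, 10091, 9631 and 9046 with BMDM-HG-exo. Each of the 8 exosome-treated libraries was above each PBS library, and the PBS libraries were tightly grouped (8626 ± 74.5, SD, n = 4). Their coefficient of variation, 0.864%, was below the counting error of Cd36 at its mean reads over the 20 libraries, 1.00%. The share of all genes with both exosome groups apart from PBS is not given here. The log2 fold change against PBS was 0.11 (SE 0.039, limma adjusted p = 0.152) for BMDM-NG-exo. For BMDM-HG-exo it was 0.13 (SE 0.039, limma adjusted p = 0.0465), which is 9.35% with an interval of 3.44% to 15.6%. Cd36 was higher on 4 of 4 dates with either exosome, by log2 differences of 0.040 to 0.19 and 0.073 to 0.21. Between the 2 exosome groups the difference was 1.37% (-4.11% to 7.16%), so a difference of the size seen against PBS was outside this interval. The adjusted p against PBS was 0.0121 with the date block, and over the other settings that kept all libraries it reached 0.240. Without BMDM-HG-exo replicate 1 the comparison was called (log2 fold change 0.15, limma adjusted p = 0.0249). With another library left out, its log2 fold change was as low as 0.097 and its limma adjusted p as high as 0.238.

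Scarb1, the high-density lipoprotein receptor (chr5:125277087-125341094, minus strand), was at 2675, 2379, 2561 and 2430.3 normalized counts in normal glucose, and the high glucose libraries held 2787, 2465, 2863 and 2642. It stood at 2871, 2426, 2705 and 2746 with PBS, 2463, 2539, 2501 and 2505 with BMDM-NG-exo and 2456, 2513, 2413 and 2643 with BMDM-HG-exo. All 5 groups overlapped, and PBS was the most spread of the exosome arms, since its replicate 2 lay below all BMDM-NG-exo libraries. The log2 fold change in high glucose was 0.098 with a 95% interval of -0.680% to 15.3% in percent (limma adjusted p = 0.25). Against PBS it was -0.10 for BMDM-NG-exo and -0.099 for BMDM-HG-exo, with limma adjusted p-values of 0.414 and 0.344. Scarb1 was lower than PBS on 3 of 4 dates with either exosome. It overlaps the uncharacterised gene Gm42633 on the same strand, which had 1.81 to 63.5 normalized counts.

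Of the lysosomal members, Scarb2 (chr5:92441314-92506833, minus strand) was at 12236, 12738, 12449.6 and 12521 normalized counts in normal glucose. Its values in high glucose were 12422, 12896, 12554 and 12587. It stood at 13936, 13823, 13980.2 and 13658 with PBS, 13682, 13195, 12879 and 13686 with BMDM-NG-exo and 13685, 12999, 12634 and 13369 with BMDM-HG-exo. The glucose groups overlapped, and the PBS range touched the upper end of both exosome ranges. The log2 fold change was 0.015 in high glucose (limma adjusted p = 0.837), and its sign changed under quantile normalization. It was -0.052 and -0.073 for BMDM-NG-exo and BMDM-HG-exo against PBS, with limma adjusted p-values of 0.550 and 0.257. Scarb2 was lower than PBS on 4 of 4 dates with BMDM-HG-exo, by log2 differences of -0.15 to -0.026, and on 3 of 4 with BMDM-NG-exo.

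Cd68, the macrosialin gene (chr11:69664213-69666153, minus strand), was at 31824, 30684, 32389.5 and 32649.8 normalized counts in normal glucose. The 4 high glucose libraries were at 28416, 29115, 29591 and 27962. Each high glucose library was below each normal glucose library. Cd68 fell by 0.15 on the log2 scale (SE 0.032, limma adjusted p = 0.00129), from a mean of 31887 ± 873 to 28771 ± 724, which is -9.77% with a 95% interval of -13.8% to -5.56%. The call was lost without the trend of variance on mean (limma adjusted p = 0.0904), held under every other setting that kept all libraries, down to 5.07e-06 under quantile normalization, and held with any 1 library left out (up to 0.0129). Quantile normalization also moved the calls over all genes, from 1116 higher and 798 lower to 789 and 872. The smaller p of Cd68 under it is therefore not added support. In the exosome experiment Cd68 stood at 29189.9, 29461, 27592 and 28732 with PBS, at 31556, 31116, 29451 and 30904 with BMDM-NG-exo and at 30439.5, 31158, 30326 and 29286 with BMDM-HG-exo. The lowest library of each exosome group lay inside the PBS range. The log2 fold change against PBS was 0.098 for BMDM-NG-exo (limma adjusted p = 0.0826) and 0.076 for BMDM-HG-exo (limma adjusted p = 0.18). Cd68 was above PBS on 4 of 4 dates with either exosome, by log2 differences of 0.079 to 0.11 and 0.028 to 0.14. With the date block the adjusted p of BMDM-NG-exo against PBS was 0.0164, with the change still under the fold limit. Over the other settings that kept all libraries this adjusted p reached 0.353, and with 1 library left out it reached 0.248.

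Stab1, the stabilin that clears acetylated lipoprotein and Sparc (chr14:31139013-31168641, minus strand), was at 73616, 67678, 76102 and 68809 normalized counts in normal glucose. With high glucose the values were 74989, 72815, 70064 and 68743. The groups overlapped, and the log2 fold change of 0.0029 (limma adjusted p = 0.97) changed sign with TMM factors, quantile normalization, edgeR and DESeq2. With PBS it was at 82649.7, 81822, 80237 and 79783, with BMDM-NG-exo at 75896, 74305, 73959.9 and 81752 and with BMDM-HG-exo at 76823, 73009.5, 73184 and 76463. Each BMDM-HG-exo library was below each PBS library, and 3 of the 4 BMDM-NG-exo libraries were too, with replicate 4 inside the PBS range. Against PBS the log2 fold change was -0.12 for BMDM-HG-exo (SE 0.031, limma adjusted p = 0.0159), which is -7.72% with an interval of -11.6% to -3.66%. For BMDM-NG-exo it was -0.086 (SE 0.031, limma adjusted p = 0.143). BMDM-HG-exo was lower on 4 of 4 dates, by log2 differences of -0.16 to -0.061, and BMDM-NG-exo on 3 of 4. With the date block the adjusted p-values were 0.00122 and 0.0304, and without the variance trend that of BMDM-HG-exo was 0.215. With 1 library left out, the limma adjusted p of BMDM-HG-exo against PBS reached 0.0802. Stab1 overlaps Nt5dc2 on the opposite strand, which had 1835 to 2529 normalized counts. The counting used strand.

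Cd163, the haemoglobin scavenger (chr6:124304656-124330527, plus strand), was at 157, 261, 242 and 269.8 normalized counts in normal glucose. High glucose libraries held 201, 194, 127 and 163. Replicate 1 of normal glucose lay inside the high glucose range, and the other 3 lay above it. The log2 fold change was -0.43 (SE 0.17, limma adjusted p = 0.0989), with a 95% interval of -41.9% to -5.34% in percent. Without normal glucose replicate 1 it was -0.61 and was called (limma adjusted p = 0.0105). With another library left out it was as small as -0.295, with limma adjusted p-values up to 0.335. Over the other settings that kept all libraries it lay between -0.44 and -0.18, with adjusted p-values up to 0.784. In the exosome experiment Cd163 was at 144, 146, 156 and 197 with PBS, at 140.3, 144, 188 and 179.6 with BMDM-NG-exo and at 104, 222, 129 and 148 with BMDM-HG-exo. The BMDM-HG-exo group held both the lowest and the highest of these 12 values. Its log2 fold change against PBS was -0.14 with an interval of -31.4% to 19.7% in percent, so changes of that size were not detectable at this depth and spread.

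**Figure D3:**
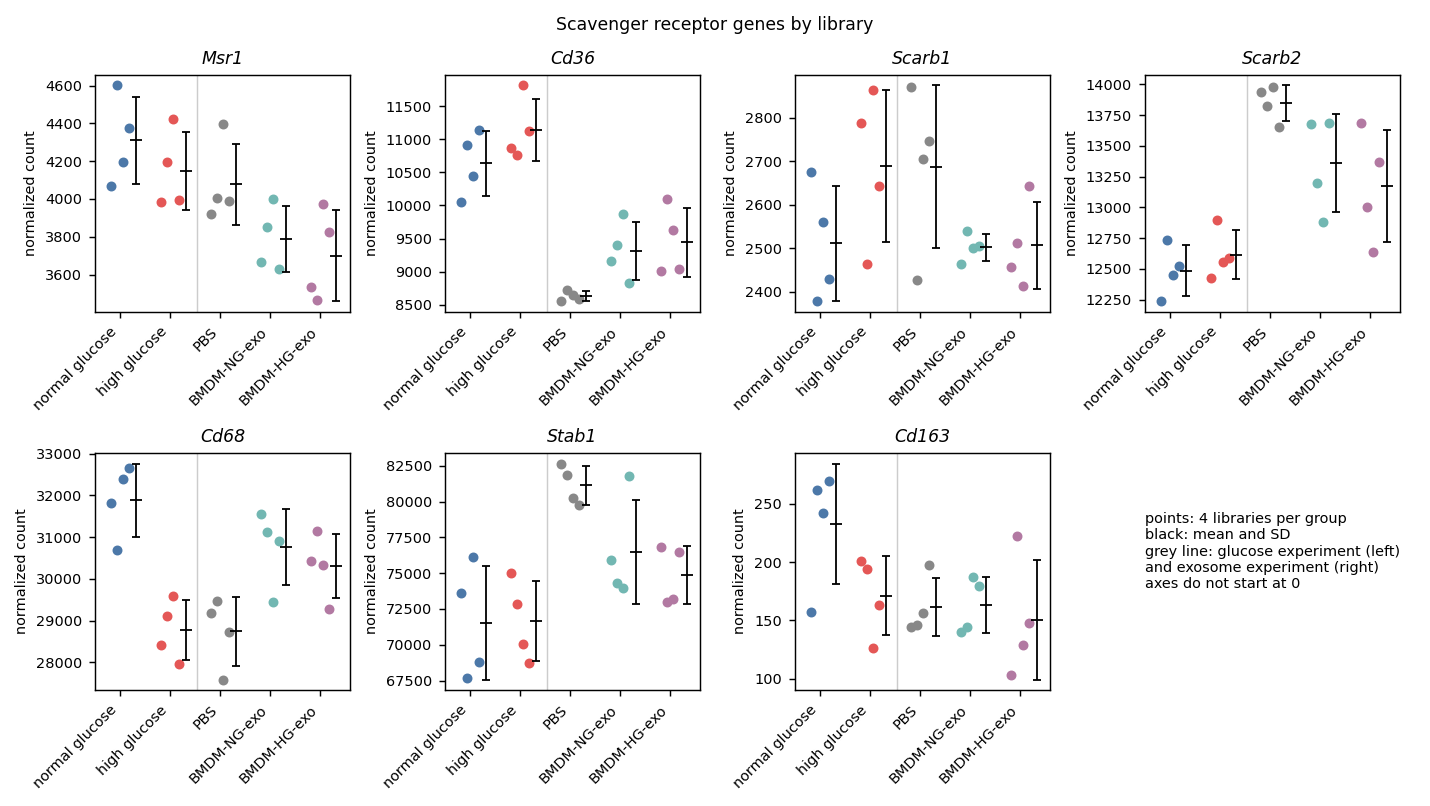
Normalized count of each of the 7 genes (one panel each, axes not starting at 0) in 4 libraries per group, with the mean and SD in black; the grey line parts the glucose from the exosome experiment. Cd68 shows no overlap between normal glucose (30684 to 32649.8) and high glucose (27962 to 29591), and Cd36 none between PBS and either exosome group.

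**Figure D4:**
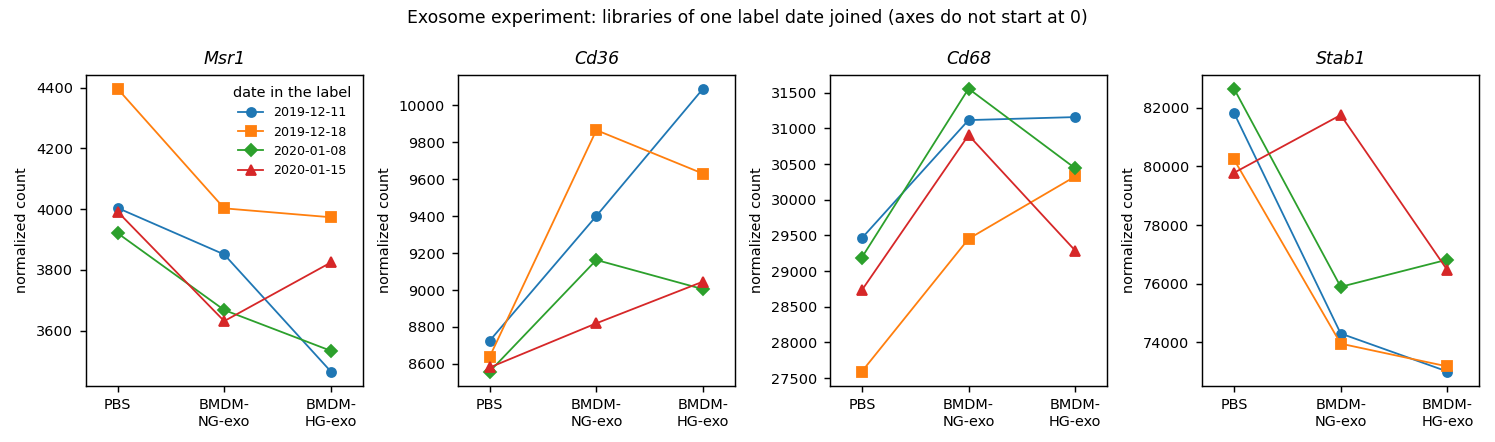
Normalized counts of Msr1, Cd36, Cd68 and Stab1 in the exosome experiment, with the 3 libraries of each label date joined by a line (axes not starting at 0). From PBS to BMDM-HG-exo, Cd36 and Cd68 are higher and Msr1 and Stab1 lower on 4 of 4 dates. From BMDM-NG-exo to BMDM-HG-exo the lines go both ways. Scarb2, which is not drawn, was also lower with BMDM-HG-exo than with PBS on 4 of 4 dates. The share of all genes with the same direction on all dates is not given here.

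For none of the 7 genes did BMDM-HG-exo differ from BMDM-NG-exo by more than the spread of the libraries. The log2 fold changes between them ran from -0.16 (Cd163) to 0.020 (Cd36), and limma's adjusted p-values were all at least 0.943. The 95% interval was -9.0% to 4.62% for Msr1, -6.99% to 7.77% for Scarb1 and -5.99% to 3.37% for Scarb2. It was -5.69% to 2.95% for Cd68 and -6.19% to 2.27% for Stab1, so larger differences than these in either direction were outside the intervals. For Cd163 it was -32.2% to 18.3%. Against the combined controls, the value with the smallest unadjusted p was that of Stab1, at a log2 fold change of -0.073 (limma adjusted p = 0.435).

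Whether glucose itself and exosomes from glucose-treated cells moved a member differently was tested as the glucose effect minus the effect of BMDM-HG-exo against BMDM-NG-exo, over all 20 libraries. By limma 0 of 7 members were called, with 1 at an unadjusted p under 0.05, where 4.74% of 14449 genes were called, and edgeR also called 0. Of all 14449 genes, 2459 had an unadjusted limma p under 0.05. The largest contrast with an unadjusted p under 0.05 was that of Cd68, -0.13 on the log2 scale (limma adjusted p = 0.0917). Under quantile normalization it was -0.20 and was called (limma adjusted p = 0.00108). That method also moved the calls over all genes, from 472 higher and 213 lower to 322 and 290. The median contrast of the members was 0.033, beside -3.39e-04 over all genes.

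Levels across the 2 experiments are described without a test, since experiment and group cannot be told apart. Cd36 averaged 10889.5 ± 521 over the 8 glucose libraries and 9127 ± 517 over the 12 exosome libraries (SD), and 7 of the 8 glucose libraries were above all 12. Scarb2 and Stab1 had the opposite order, with 10 and 7 of the 12 exosome libraries above all glucose libraries. Msr1, Scarb1, Cd68 and Cd163 overlapped more widely. In the order of the 5 group means, the one pair of neighbours without overlap was BMDM-NG-exo above PBS for Cd36.

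Of 15 other scavenger receptor genes, 12 were tested in the glucose experiment, and 2 rose and 5 fell, with a median log2 fold change of -0.20 beside -0.0031 over all genes. Over all genes 13.3% were called there, and 0.201% in BMDM-HG-exo against the combined controls. Against PBS 4.84% were called with BMDM-HG-exo and 3% with BMDM-NG-exo. These shares are the background for this list and those below. The lists were chosen with earlier results of these data known. Mrc1 (the mannose receptor) fell by 0.47 on the log2 scale and Cd5l (a secreted apoptosis inhibitor of macrophages) fell by 0.53, with limma adjusted p-values of 3.84e-09 and 3.19e-08. Cxcl16, whose membrane form binds oxidised lipoprotein, rose by 0.34 (limma adjusted p = 1.05e-08) and the collectin Colec12 by 0.45 (1.05e-05). These counts were the same with TMM factors, quantile normalization, edgeR and DESeq2, but were 2 and 3 without the variance trend and 1 and 4 with the library number as a block, where Colec12 was not called (0.29, limma adjusted p = 0.0504). In BMDM-HG-exo against the combined controls 0 of the 12 were called by limma, edgeR or DESeq2. Against PBS, Cxcl16 fell by 0.29 with BMDM-NG-exo and by 0.28 with BMDM-HG-exo (limma adjusted p = 3.05e-05 and 2.96e-05), with no other call of the list by limma, edgeR or DESeq2. With the label date as a block 1 gene of the list was also called higher in each, and without the variance trend Cxcl16 was not called with BMDM-NG-exo (limma adjusted p = 0.0665).

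Among ligands and partners of the members, 15 genes were tested in the glucose experiment, and 7 rose and 2 fell (6 and 3 under quantile normalization). Hmox1, which breaks down the haem that Cd163 delivers, rose by 0.56 on the log2 scale (limma adjusted p = 1.39e-12). The Toll-like receptors Tlr2 and Tlr4, which act beside Cd36, rose by 0.43 and 0.28 (limma adjusted p = 4.16e-08 and 6.52e-06). Thbs1 (thrombospondin-1), a ligand of Cd36, fell by 0.57 (limma adjusted p = 1.05e-05), a call lost without the variance trend. Thbs1 was also called in BMDM-HG-exo against the combined controls, as the one gene of this list by limma and edgeR and with a second one by DESeq2 (2 lower). It fell there by 0.53 (limma adjusted p = 6.71e-04, and 0.290 without the variance trend). Against BMDM-NG-exo alone it fell by 0.51 (limma adjusted p = 3.82e-04, and 0.629 without the variance trend). Tlr2 fell against PBS with both exosomes, by 0.30 with BMDM-NG-exo and by 0.44 with BMDM-HG-exo (limma adjusted p = 1.97e-04 and 2.05e-07).

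Of 14 transcriptional regulators linked to these receptors, 3 rose and 1 fell in high glucose (2 and 3 under quantile normalization). Cebpb rose by 0.38, Spi1 by 0.23 and Mitf by 0.14 on the log2 scale, and Maf fell by 0.18, with limma adjusted p-values of 1.76e-07, 8.10e-06, 0.0314 and 3.24e-04. Mitf was not called under quantile normalization (adjusted p = 0.191), and neither Mitf nor Maf was without the variance trend (0.239 and 0.0686) or with the library number as a block (0.399 and 0.132, all limma adjusted p). None of the 14 was called in BMDM-HG-exo against the combined controls by limma, edgeR or DESeq2. Against PBS, Spi1 and Cebpb fell with BMDM-HG-exo, by 0.17 and 0.19 (limma adjusted p = 0.00231 and 0.0127) but neither was called without the variance trend (0.0862 and 0.216). With BMDM-NG-exo limma and edgeR called 0 of the 14, DESeq2 called 1 higher, and the block for the date gave 1 higher and 1 lower. Of 17 genes for uptake and fate of lipoprotein lipid, 3 rose and 3 fell in high glucose (1 and 6 under quantile normalization). Lipa, the lysosomal acid lipase, rose by 0.23 (limma adjusted p = 1.50e-06) and the cholesterol exporter Abca1 fell by 0.17 (limma adjusted p = 0.00119). Fabp5 fell by 0.17 and the lipid droplet gene Plin2 rose by 0.12, with limma adjusted p-values of 0.00806 and 0.00947, the latter not called under quantile normalization (adjusted p = 0.111). Without the variance trend Abca1, Fabp5 and Plin2 were not called (limma adjusted p = 0.116, 0.188 and 0.154), nor with the library number as a block (0.105, 0.101 and 0.252). Against the combined controls 0 of these 17 were called with BMDM-HG-exo by limma and edgeR and 1 by DESeq2, whereas against PBS 4 rose and 1 fell. Fabp5 rose there by 0.40 and Abca1 fell by 0.26 (limma adjusted p = 3.85e-08 and 9.05e-06). With BMDM-NG-exo 3 rose and 1 fell against PBS, Fabp5 by 0.38 (limma adjusted p = 1.59e-07).

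**Figure D5:**
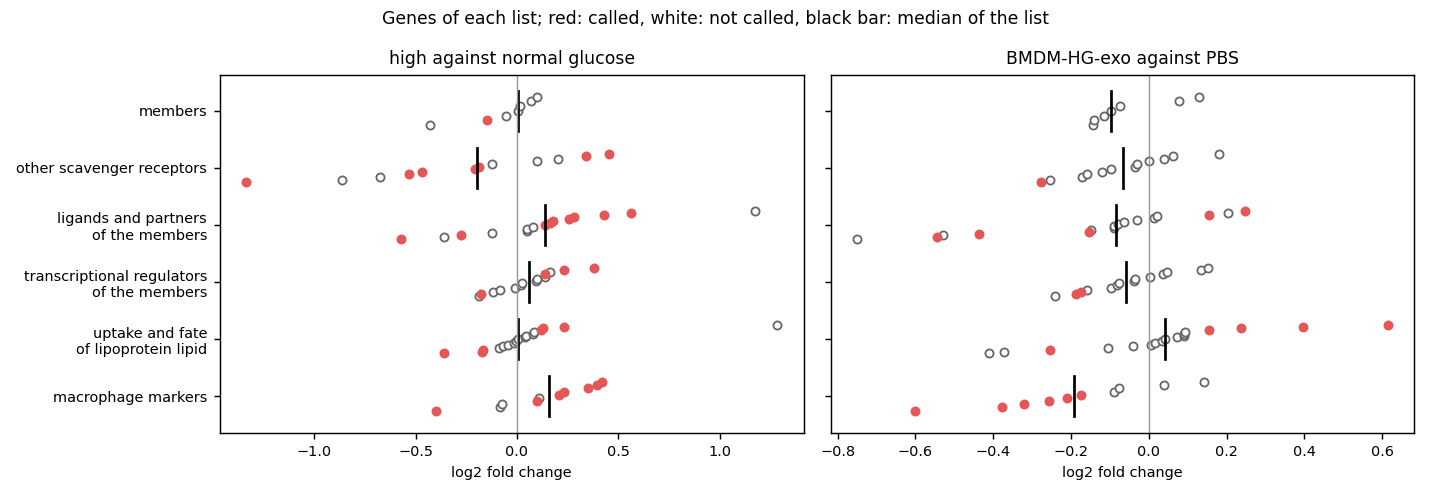
Log2 fold change of each gene of the members and of 5 other lists (rows) in high against normal glucose (left) and BMDM-HG-exo against PBS (right), with called genes in red and the median of each list as a black bar. In the glucose panel, where 13.3% of all genes were called, the members cluster near a median of 0.0029 with 1 call. The other scavenger receptors have a median of -0.20 there, with 7 of 12 called.

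Markers of the cells themselves moved in both experiments. In high glucose 6 of 10 macrophage markers rose and 1 fell (4 and 2 under quantile normalization), among them Csf1r, which rose by 0.35 on the log2 scale, and Mertk, which fell by 0.40. Lyz2 rose by 0.42 and Cd14 by 0.39. The change of Lyz2 was 0 under quantile normalization. That method gives a gene of the same rank in every library the same value, so it cannot test such a rise. With BMDM-HG-exo, Itgam and Fcgr1 fell against the combined controls by 0.29 and 0.39 (limma adjusted p = 0.0125 and 0.0392). Fcgr1 was not called with the label date as a block (0.0780), with DESeq2 (0.0533) or under quantile normalization (0.0536), and without the variance trend neither was (Itgam 0.349, Fcgr1 0.40, all adjusted p). Against PBS 0 of 10 rose and 6 fell with BMDM-HG-exo, and 0 rose and 5 fell with BMDM-NG-exo (without the variance trend, 5 and 1 fell). Over all genes 4.84% and 3% were called in these comparisons, in that order. The summed macrophage markers ran from 670086 to 748978 normalized counts in normal glucose and from 865439 to 939256 in high glucose. They ran from 854104 to 902502 with PBS, 778069 to 834493 with BMDM-NG-exo and 794250 to 825959 with BMDM-HG-exo. The summed stromal and endothelial markers were 6675 to 7847 in normal glucose, 6711 to 7003 in high glucose, 6759 to 7492 with PBS, 7931 to 8950.4 with BMDM-NG-exo and 8548 to 9655 with BMDM-HG-exo. Vwf itself was called against PBS with BMDM-NG-exo (0.31) and BMDM-HG-exo (0.40), and it made up nearly all of that sum, since the other 6 listed genes together stayed between 431 and 701 in all groups. The neutrophil and progenitor markers summed to between 165 and 378 normalized counts, Cd79b stood between 17.4 and 68.0 and Batf3 between 38.4 and 120.4, and limma, edgeR and DESeq2 called 0 of the markers of other cells in the glucose experiment. There 1 stromal or endothelial marker was lower under quantile normalization, and Batf3 was lower without the variance trend. The part of these markers in the values of Cd68, Cd36 and Stab1 was not tested.

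The genes whose log2 levels followed each member most closely over the 20 libraries were named by Pearson's r among 11699 genes with a mean of at least 50, as a description. All 20 libraries share the difference between the experiments, and the second value in brackets is r after the group means were removed. Msr1 was closest to Tet2 (r = 0.870, 0.811), Phka2 (r = 0.838, 0.648) and Myadm (r = 0.831, 0.606). Cd36 was closest to Celf2 (r = 0.923, 0.603), Xpo1 (r = 0.920, 0.745) and Mbnl1 (r = 0.906, 0.582). For Scarb1 the closest were Nr1h3 (r = 0.767, 0.661), Alg3 (r = 0.727, 0.721) and Cyren (r = 0.712, 0.632), of which Nr1h3 encodes the liver X receptor alpha. Scarb2 was followed by Agpat1 (r = 0.902, 0.752), Junb (r = 0.885, 0.456) and Poldip3 (r = 0.882, 0.691). The nearest to Cd68 were Stmn1 (r = 0.864, 0.642), Aplp2 (r = 0.860, 0.352) and Tspyl4 (r = 0.857, 0.529). Stab1 kept high values also within groups, with Pik3cd (r = 0.922, 0.756), Arhgap45 (r = 0.909, 0.919) and Fermt3 (r = 0.904, 0.867). Cd163 was closest to Gm14548 (r = 0.825, 0.737), Fchsd2 (r = 0.821, 0.704) and Zfp292 (r = 0.778, 0.706).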

How the data were processed

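The series holds 20 RNA-seq libraries of mouse BMDM. The authors mapped reads with STAR to GRCm38 after trimming with cutadapt, counted them per gene on the sense strand with FeatureCounts, and deposited a signal, the count divided by the DESeq2 size factor of the library. Whole reads were recovered from the smallest step of each column (100% of values whole, within 0.01), and all columns matched a sample label. Symbols, coordinates and exon lengths come from GENCODE M21 (14421 of 14456 identifiers matched), promoters from RefSeq (7 of 9 members).

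Log2 of the normalized count plus 1 was fitted with limma 3.58.1 (R 4.3.3, lmFit, eBayes with trend) for genes averaging 10 or more normalized counts, with separate fits for the glucose (8 libraries) and exosome (12 libraries) experiments, the latter as 2 groups for the combined controls and as 3 groups otherwise. Alternatives were other pseudocounts, filters, TMM factors, quantile normalization, no variance trend, a replicate block, all 20 libraries in 1 fit, each library left out, and edgeR 4.0.16 and DESeq2 1.42.0 on the recovered reads. The scripts were tested on simulated data. Tables and plots used Python 3.11.15, pandas 2.3.3, numpy 2.4.6 and matplotlib 3.10.9.

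The members and gene lists were chosen with earlier results of these data known. All members were named, and from each other list at most the 4 called genes with the smallest adjusted p per comparison, in high against normal glucose and in BMDM-HG-exo against combined controls, with the markers Csf1r, Adgre1 and Itgam and the highest marker of each other cell type. Other genes named were the 3 with the highest r to each member. The neutrophil and stromal lists were also named in full, to show which of their markers were listed. The sample labels give the dates that pair the exosome libraries. Deviations from the group means correlated at a mean r of 0.012 between libraries of one date (12 pairs) and -0.0040 between others (36 pairs). The totals of 34016445 to 56310712 reads set the counting error of each gene. Pooled over the 5 groups, the spread within groups was larger than this error for all members. Single groups could fall below it, as Cd36 did with PBS (0.864% against 1.00%) and Scarb1 with BMDM-NG-exo (1.25% against 1.96%).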

Additional observations from a re-analysis of the deposited data

How the results depend on the processing

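Of 945 recomputed values, 413 under alternative settings and 532 with 1 library left out, 914 kept their direction and their side of the threshold. The count of members called in high against normal glucose was 0 without the variance trend, and it ran from 1 to 2 when a library was left out. In BMDM-HG-exo against PBS it was 2 with no limit on the fold change (chosen after seeing the data) and ran from 0 to 1 when a library was left out. The count for the difference of effects was 1 under quantile normalization. Reversals were of uncalled values, the largest of them -0.15 for Cd163 in BMDM-HG-exo against the combined controls. In high against normal glucose Stab1 was -7.37e-05 with TMM factors, -0.028 under quantile normalization, -7.26e-04 with edgeR and -7.88e-04 with DESeq2, and Scarb2 was -0.067 under quantile normalization. Under quantile normalization Cd68 was 0.0034 in BMDM-HG-exo against BMDM-NG-exo, and the differences of effects were -0.020 for Cd36 and -0.052 for Scarb2. Leaving out 1 library gave log2 fold changes of -0.023 to 0.033 for Stab1 in high against normal glucose. In BMDM-HG-exo against BMDM-NG-exo it gave -0.024 to 0.020 for Scarb1, -0.013 to 0.048 for Cd36 and -0.046 to 0.0026 for Stab1. For Cd163 it gave -0.36 to 0.0079 against the combined controls, -0.054 to 0.12 for BMDM-NG-exo against PBS and -0.35 to 0.016 for BMDM-HG-exo against PBS, and for Msr1 -0.050 to 0.016 in the difference of effects. Without the variance trend, the numbers of genes higher and lower in high glucose were 2 and 3 for other scavenger receptors, 4 and 0 for ligands, 2 and 0 for regulators, 1 and 0 for lipid genes and 4 and 1 for macrophage markers. In BMDM-HG-exo against PBS they were then 0 and 1, 0 and 1, 0 and 0, 2 and 1, and 0 and 5 in that order. The cause was not tested.

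Counts over all genes moved more. High against normal glucose gave 1116 higher and 798 lower, 789 and 872 under quantile normalization, and 654 in all without the variance trend. BMDM-HG-exo against the combined controls gave 29, and 1 without the trend, 47 with a pseudocount of 5, 19 under quantile normalization, 127 with DESeq2, 322 with all 20 libraries in 1 fit and 1 to 204 with a library left out. BMDM-HG-exo against BMDM-NG-exo gave 2, and 5 with a pseudocount of 5, a minimum mean of 50 or TMM factors, 1 with edgeR or without the trend, 22 with DESeq2, 0 in 1 fit and 1 to 7 with a library left out. Without the trend, BMDM-NG-exo against PBS gave 95 (432 with it), BMDM-HG-exo against PBS 295 (698) and the difference of effects 324 (685). The replicate block changed no call of a member: the counts stayed at 1 in high against normal glucose and 0 in the exosome comparisons. In the glucose experiment only 2 numbers occur in both groups, with a mean r of 0.0071 for those pairs and -0.0010 for others, and with that block all calls were 788 in place of 1914.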
